A study of Mus musculus with 6 samples.

Results

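The calcineurin and NFAT genes examined here were Nfatc1, Nfatc2, Nfatc3, Nfat5, Ppp3ca, Ppp3cb, Ppp3r1 and Rcan1, read by every probe set that the array's annotation assigns to 1 of these 8 genes. The 8 genes, of 18193 that the annotation gives, had 31 such probe sets among 45101 on the array, and 1 more, annotated to Ppp3r1 and to another gene, was not used. Expression was measured on 6 arrays of regulatory T cells (Tregs), a CD4 lineage that holds other immune cells in check, in 3 groups of 2 arrays. All cells came from spleen and lymph nodes of C57Bl/6 mice aged 8 to 11 weeks that carry the FoxP3GFP reporter, and were sorted as CD4+CD25+FoxP3+. Wild-type cells (A2AR+/+FoxP3GFP) received the DMSO vehicle (WT vehicle) or 10 nM ATL1222 (WT ATL1222), a compound that activates the adenosine receptor A2AR, and receptor knockout cells (A2AR-/-FoxP3GFP) received the vehicle (KO vehicle), each for 18 h in cells that the labels call unactivated. The replicates are called biological, but nothing says that each came from its own animals; the p-values therefore reflect the spread of these arrays alone, which may be technical. In bulk samples fewer cells of a type and less RNA per cell cannot be told apart.

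Calcineurin is a phosphatase that calcium and calmodulin switch on after T cell receptor signalling. It removes phosphates from the calcium-regulated NFAT factors, which then enter the nucleus and drive cytokine and activation genes, and in Tregs NFAT is known to form complexes with the FoxP3 protein. Rcan1 binds and restrains calcineurin, while Nfat5 is a distant relative that responds to osmotic stress and does not need calcineurin. These factors are controlled largely by phosphorylation and location, which an array of RNA does not measure.

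Values are array signals on a linear scale, and all differences are on log2(signal + 16), which understates the change of dim genes. A probe set was tested where its mean log2 value over the 6 arrays reached 6.45, a signal of about 71.2. By that limit 23710 probe sets were tested, among them 22 of the 31 members. The 9 members below it were 4 of the 6 probe sets of Nfatc2, 3 of the 6 of Nfat5, 1 of the 5 of Ppp3cb and 1 of the 2 of Rcan1. Just inside the limit lay a probe set of Nfatc2 with a mean log2 value of 6.50, and just outside it lay another of the same gene at 6.42. Each probe set has its own binding strength, so signal was used to pick the brightest probe set of a gene and to set the limit, and no gene's RNA level was compared with another's. The sums of marker signals given below add linear signals, so each marker counts by the brightness of its probe set.

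The arrays had median signals from 74.7 to 98.2 and correlated with Pearson r from 0.946 to 0.958 within groups and from 0.946 to 0.965 between groups, across probe sets. Of 6 Treg markers 5 were tested, with Ikzf2 at 6810 to 8431 and Il2ra at 416.0 to 613.1, whereas the 1 probe set of Foxp3, the gene of the sort, was listed at 7.18 to 53.5. The CD4 T cell markers summed to between 8547 and 12293, with overlapping groups and with Cd4 itself at 135.6 to 487.8. The summed signals of the B cell markers measured ranged from 419.8 to 623.2, those of myeloid markers from 200.3 to 453.6, those of CD8 T and NK cell markers from 359.6 to 534.2 and those of erythroid markers from 14.7 to 118.5. Of the markers summed, 2 of 4 B cell and 1 of 5 myeloid ones reached the limit for dim probe sets. For CD8 T and NK cells it was 2 of 4, and for erythroid cells 0 of 2. The CD8 T and NK sum was 476.8 and 534.2 in KO vehicle, above the 359.6 to 436.1 of WT vehicle and the 381.1 to 399.7 with ATL1222. The summed Treg markers were at 24885 and 29286 with ATL1222, above the 21077 to 23159 of KO vehicle, and at 21672 to 26048 in WT vehicle. The B cell sum was 542.0 and 620.9 with ATL1222, above the 421.3 to 527.6 of WT vehicle, and 419.8 to 623.2 in KO vehicle. The part of these markers in any result was not tested. The knockout was not checked by the expression of the receptor's own gene, which is not reported here.

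The promoters of Nfatc2 and Rcan1 are shown because their brightest probe sets were the ones among the 8 genes with an unadjusted p under 0.05 in some comparison, a choice made after the values were seen. RefSeq (GRCm38.p6) gives a pair of start sites for each, and each window runs from 250 bases before a start to 50 bases after it, on the minus strand. Capitals mark GGAAA, the core that NFAT factors bind, and TGACGTCA, the cAMP response element that CREB factors bind, searched on both strands, so that TTTCC is also capitalised.
Nfatc2 upstream start, chr2:168601608-168601907: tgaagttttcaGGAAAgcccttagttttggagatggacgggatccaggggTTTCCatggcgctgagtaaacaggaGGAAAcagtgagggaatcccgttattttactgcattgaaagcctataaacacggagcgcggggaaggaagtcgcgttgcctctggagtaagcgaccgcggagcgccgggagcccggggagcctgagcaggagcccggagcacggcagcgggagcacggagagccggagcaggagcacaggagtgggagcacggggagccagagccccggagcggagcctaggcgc
Nfatc2 downstream start, chr2:168590316-168590615: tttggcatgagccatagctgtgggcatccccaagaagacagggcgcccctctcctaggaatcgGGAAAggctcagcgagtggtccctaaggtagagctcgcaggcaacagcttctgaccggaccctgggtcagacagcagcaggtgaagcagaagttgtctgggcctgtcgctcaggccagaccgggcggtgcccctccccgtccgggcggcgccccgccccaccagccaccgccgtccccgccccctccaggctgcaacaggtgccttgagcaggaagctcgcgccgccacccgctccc
Rcan1 upstream start, chr16:92466120-92466419: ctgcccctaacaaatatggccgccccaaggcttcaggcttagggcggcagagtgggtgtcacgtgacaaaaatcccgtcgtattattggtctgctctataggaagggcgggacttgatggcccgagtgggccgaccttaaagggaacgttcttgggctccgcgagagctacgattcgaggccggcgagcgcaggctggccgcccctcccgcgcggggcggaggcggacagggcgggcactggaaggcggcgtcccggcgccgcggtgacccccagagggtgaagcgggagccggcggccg
Rcan1 downstream start, chr16:92400029-92400328: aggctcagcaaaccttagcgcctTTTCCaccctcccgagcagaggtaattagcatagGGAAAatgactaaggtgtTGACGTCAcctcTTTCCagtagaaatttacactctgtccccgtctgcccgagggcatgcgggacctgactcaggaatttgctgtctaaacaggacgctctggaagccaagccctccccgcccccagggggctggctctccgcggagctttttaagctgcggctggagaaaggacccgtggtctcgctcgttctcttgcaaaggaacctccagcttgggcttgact
The windows of Rcan1 differed in these letters. The downstream one, whose shorter transcript is known as inducible by calcineurin and NFAT, held 3 matches of GGAAA and 1 of TGACGTCA, and the upstream one held 0 of either. The upstream window of Nfatc2 held 3 matches of GGAAA and the downstream one 1, with 0 of TGACGTCA in both. Of all 32851 promoter windows of the same length, 61.3% held GGAAA, 9.42% held at least 3 matches of it and 1.79% held TGACGTCA. Matches did not overlap each other, and a match is a description of letters, not of binding. Which transcript each probe set reads was not analysed here.

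Across the 22 tested probe sets, none passed in any of the 3 comparisons (limma, p adjusted by Benjamini-Hochberg over all 23710 probe sets, threshold 0.05). For the knockout against WT vehicle, 0 members passed, where 0% of all probe sets did, and 1 member had an unadjusted p under 0.05, 4.55% of the members against 3.21% of all. For ATL1222 against WT vehicle, 0 members passed, where 0.0380% of all did, and 1 had an unadjusted p under 0.05, against 3.83% of all. For ATL1222 against the knockout, 0 members passed, where 0.367% of all did, and 2 had an unadjusted p under 0.05, against 6.39% of all. With the replicate number as a block, 0 members passed in each comparison as well, although 0.0464%, 0.321% and 1.13% of all probe sets then did. In that fit 2 members had an unadjusted p under 0.05 in each comparison, against 5.98%, 6.85% and 10.3% of all. In both comparisons against WT vehicle they were Nfatc2 1439205_at and Nfatc1 1447085_s_at. Between ATL1222 and the knockout they were Ppp3ca 1452056_s_at and Rcan1 1416600_a_at. An absence of calls does not show equal levels: the median standard error of a member's log2 difference was 0.257.

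The members' differences were of both signs. The median log2 difference was -0.02 in the knockout, -0.01 with ATL1222 and -0.03 between ATL1222 and the knockout, where the medians of all probe sets were 0.01, -0.01 and -0.04. Arrays of the groups compared did not overlap for 3 members in the knockout comparison (1 higher, 2 lower), where 28.6% of all probe sets did not overlap. They did not overlap for 6 members with ATL1222 against WT vehicle (2 higher, 4 lower), where 29.7% of all did not, and for 5 members with ATL1222 against the knockout (3 higher, 2 lower), where 36.0% of all did not. The members' shares of 13.6%, 27.3% and 22.7% were not above those of all probe sets. By direction, all probe sets had 16.1% higher and 12.5% lower in the knockout, 13.8% and 15.9% with ATL1222, and 15.2% and 20.8% between ATL1222 and the knockout. A positive log2 difference was found for 10, 10 and 9 of the 22 members, where 52.5%, 47.6% and 44.7% of all probe sets had one.

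**Figure D1:**
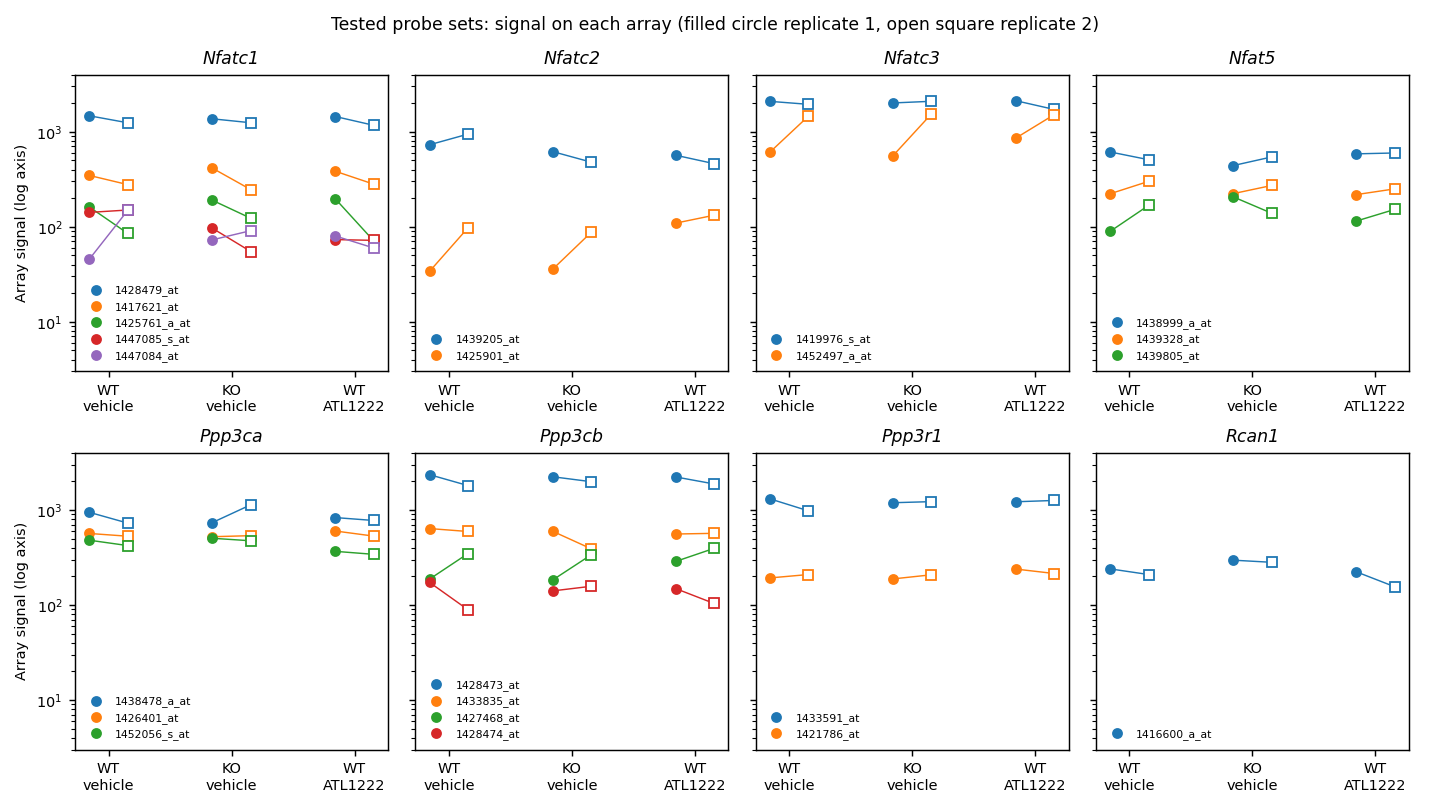
Signal on each array (vertical log axis, no unit) of the 22 tested probe sets, by gene and group, with replicate 1 as filled circles and replicate 2 as open squares. The brightest probe set of Nfatc1 stayed between 1168 and 1472, while the brightest of Nfatc2 was at 729.3 and 944.4 in WT vehicle and between 461.5 and 617.9 in the other 4 arrays.

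**Figure D2:**
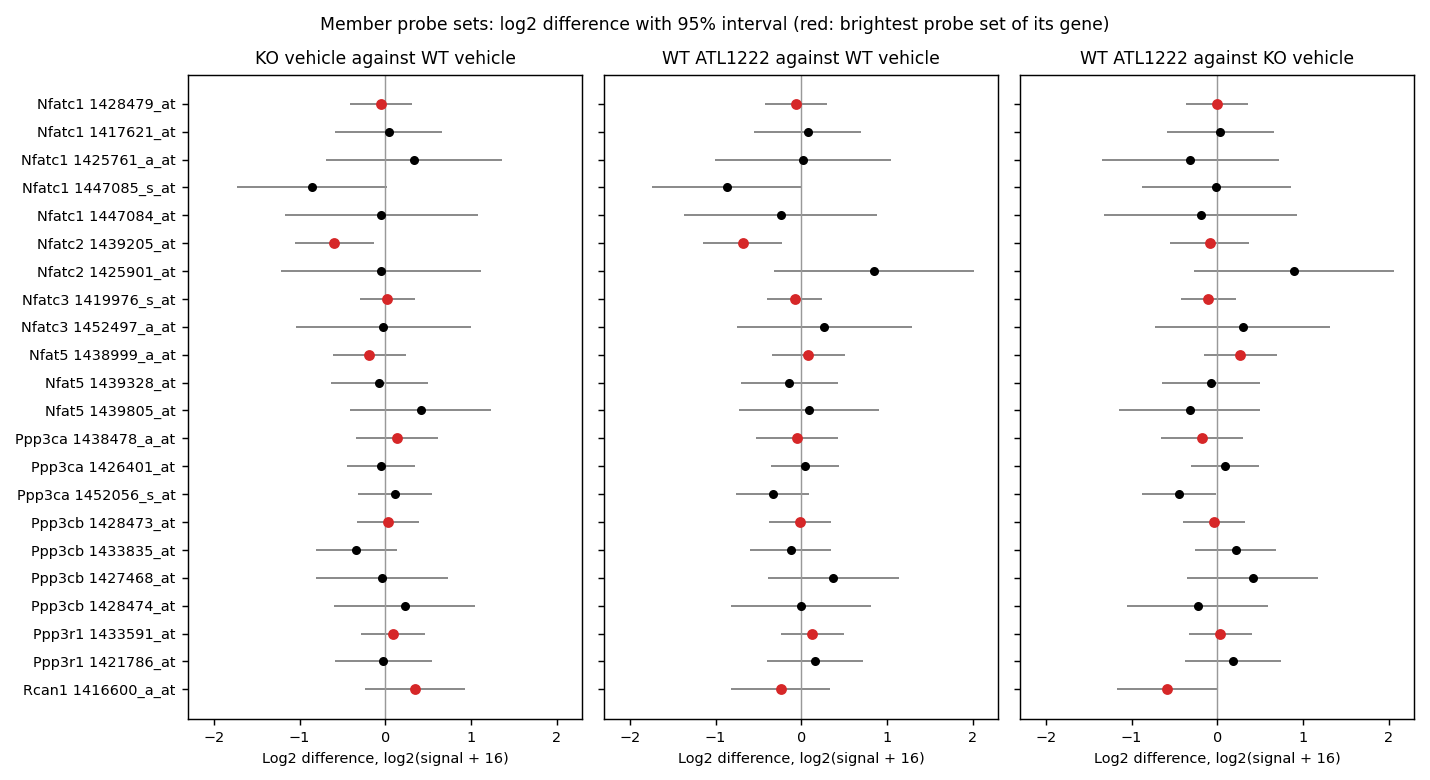
Log2 difference (horizontal axis, log2(signal + 16)) of each tested probe set in the 3 comparisons, with its 95% interval from limma over 6 arrays and the brightest probe set of each gene in red. The intervals of Nfatc2 1439205_at lie below 0 in both comparisons against WT vehicle, and no probe set passed after adjustment.

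Nfatc2, a calcium-regulated NFAT factor present in resting T cells, had the smallest p of the members in both comparisons against WT vehicle. Its brightest probe set, 1439205_at, had signals of 729.3 and 944.4 in WT vehicle, 617.9 and 478.9 in KO vehicle, and 565.8 and 461.5 with ATL1222. Both WT vehicle arrays lay above the other 4, which overlapped each other. The log2 difference was -0.60 ± 0.21 (SE; 95% interval -1.06 to -0.13) in the knockout, with an unadjusted p of 0.0162 and a limma adjusted p = 1.00. With ATL1222 it was -0.68 ± 0.21 (95% interval -1.14 to -0.22), with an unadjusted p of 0.00767 and a limma adjusted p = 0.999. Between ATL1222 and the knockout it was -0.09 ± 0.21 (95% interval -0.55 to 0.37). The order of the group means was thus WT vehicle, KO vehicle and ATL1222, at 836.9 ± 152, 548.4 ± 98.3 and 513.7 ± 73.7 (SD, n = 2), and the last 2 differed by less than their spread.

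Both differences of this probe set share the WT vehicle arrays, and its replicates there lay apart. Within replicate 1 the log2 differences were -0.23 in the knockout and -0.36 with ATL1222, and within replicate 2 they were -0.96 and -1.01. Without WT vehicle replicate 2 they were -0.41 and -0.50, and without WT vehicle replicate 1 they were -0.78 and -0.87. With the replicate block the limma adjusted p was 0.682 in the knockout and 0.341 with ATL1222. Its unadjusted p lay among the lowest 0.848% and 0.768% of those of all probe sets tested.

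The other probe sets of Nfatc2 did not follow the brightest one. The dim probe set 1425901_at had 34.0 and 97.6 in WT vehicle, 35.6 and 87.0 in KO vehicle, and 109.0 and 132.1 with ATL1222. Here the ATL1222 arrays lay above all others, with a log2 difference of 0.85 ± 0.53 from WT vehicle (95% interval -0.31 to 2.02, limma adjusted p = 1.00). Probe set 1426032_at, just below the limit and not tested, had 34.5 and 126.0 in WT vehicle, 16.3 and 54.3 in KO vehicle, and 128.4 and 148.0 with ATL1222, and so was likewise highest with ATL1222. The untested probe sets 1426031_a_at and 1425990_a_at were instead highest in KO vehicle, at 131.2 and 88.6 and at 81.2 and 67.5, and lay between 10.6 and 60.3 on the other 4 arrays. The last one, 1440426_at, was also highest in KO vehicle, at 79.5 and 80.0, and lay between 32.4 and 75.3 on the other 4 arrays. For 1425901_at the replicates of WT vehicle differed by 1.18 on the log2 scale, more than the group difference.

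Nfatc1, the factor that NFAT itself induces on activation, differed little between the groups by its brightest probe set. Probe set 1428479_at had 1472 and 1242 in WT vehicle, 1367 and 1243 in KO vehicle, and 1446 and 1168 with ATL1222. All 3 groups overlapped. The log2 differences from WT vehicle were -0.05 ± 0.16 (95% interval -0.41 to 0.31) in the knockout and -0.06 ± 0.16 (95% interval -0.42 to 0.31) with ATL1222, each with a limma adjusted p = 1.00. The next brightest, 1417621_at, ranged from 245.9 to 414.0 and 1425761_a_at from 70.9 to 196.7, also with overlapping groups.

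A dimmer probe set of Nfatc1 was lower in both groups than in WT vehicle. Probe set 1447085_s_at had 141.5 and 149.9 in WT vehicle, 96.5 and 54.8 in KO vehicle, and 73.2 and 71.9 with ATL1222, without overlap with WT vehicle. Its log2 differences were -0.86 ± 0.40 (95% interval -1.73 to 0.02) and -0.87 ± 0.40 (95% interval -1.74 to 0.005), with limma adjusted p = 1.00 for both. The unadjusted p were 0.0537 and 0.051 in the main fit and 0.0435 and 0.0412 with the replicate block (limma). With the block the limma adjusted p were 0.825 and 0.705. Array designs use the suffix _s_at for probe sets that can bind transcripts of more than 1 gene. Probe set 1447084_at, at 45.5 and 148.6 in the WT vehicle arrays and between 59.7 and 90.9 in the others, had overlapping groups, with log2 differences of -0.05 ± 0.51 and -0.24 ± 0.51 from WT vehicle. Over the 5 probe sets the log2 differences in the knockout ran from -0.86 to 0.34, and those with ATL1222 from -0.87 to 0.08.

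Nfatc3, the third calcium-regulated factor, is bound by an s-type probe set and by one that split by replicate number. Probe set 1419976_s_at had 2088 and 1943 in WT vehicle, 2008 and 2091 in KO vehicle, and 2120 and 1715 with ATL1222, so that all groups overlapped. Its log2 differences from WT vehicle were 0.02 ± 0.15 (95% interval -0.30 to 0.35) in the knockout and -0.08 ± 0.15 (95% interval -0.40 to 0.24) with ATL1222. Probe set 1452497_a_at had 609.5, 558.1 and 858.3 on the replicate 1 arrays of WT vehicle, KO vehicle and ATL1222, and 1458, 1537 and 1516 on the replicate 2 arrays. All 3 replicate 2 arrays were higher, by 2.24-fold on average, a larger gap than any between the group means of that probe set. Its log2 difference in the knockout was -0.02 ± 0.46. With ATL1222 it was 0.27 ± 0.46 from WT vehicle and 0.29 ± 0.46 from the knockout. With the replicate block the SE was 0.16, and the last 2 had unadjusted p of 0.109 and 0.0836 (limma adjusted p = 0.818 and 0.569).

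Nfat5, the osmotic stress factor, had overlapping groups against WT vehicle on each of its 3 tested probe sets. The brightest, 1438999_a_at, had 612.0 and 507.5 in WT vehicle, 440.3 and 542.5 in KO vehicle, and 584.9 and 597.3 with ATL1222. The ATL1222 arrays lay above the KO vehicle arrays, with a log2 difference of 0.27 ± 0.19 (95% interval -0.16 to 0.69, limma adjusted p = 0.941). Probe set 1439328_at ranged from 217.8 to 300.3 and 1439805_at from 89.5 to 206.2. The 3 untested probe sets lay between 3.52 and 94.8.

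The catalytic subunits of calcineurin are encoded by Ppp3ca and Ppp3cb, and neither passed on any probe set. The brightest of Ppp3ca, 1438478_a_at, had 946.2 and 728.2 in WT vehicle, 737.6 and 1135 in KO vehicle, and 832.8 and 776.1 with ATL1222, with all groups overlapping. Its log2 differences from WT vehicle were 0.14 ± 0.22 (95% interval -0.34 to 0.62) in the knockout and -0.05 ± 0.22 (95% interval -0.53 to 0.43) with ATL1222. Probe set 1426401_at was even, between 523.6 and 601.3 on the 6 arrays.

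The remaining probe set of Ppp3ca, 1452056_s_at, was lowest with ATL1222. It had 481.2 and 422.2 in WT vehicle, 504.4 and 474.5 in KO vehicle, and 367.3 and 341.6 with ATL1222, and the ATL1222 arrays lay below the other 4. The log2 difference was -0.33 ± 0.20 (95% interval -0.76 to 0.09, limma adjusted p = 1.00) from WT vehicle and -0.45 ± 0.20 (95% interval -0.88 to -0.02, limma adjusted p = 0.753) from the knockout. The other probe sets of the gene had 0.09 and -0.18 in the latter comparison, so they disagreed in sign with each other.

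Ppp3cb, by its brightest probe set 1428473_at, had 2355 and 1808 in WT vehicle, 2241 and 1988 in KO vehicle, and 2231 and 1880 with ATL1222. The groups overlapped, and replicate 2 was lower in each. The log2 differences from WT vehicle were 0.03 ± 0.16 (95% interval -0.33 to 0.39) and -0.01 ± 0.16 (95% interval -0.37 to 0.35). Probe set 1433835_at had 638.0 and 594.2 in WT vehicle, 597.7 and 391.4 in KO vehicle, and 558.9 and 568.3 with ATL1222, where both arrays lay below WT vehicle by a log2 difference of -0.12 ± 0.22. Probe set 1428474_at ranged from 89.1 to 172.8, and the untested 1446149_at from 34.1 to 77.8. Probe set 1427468_at split by replicate number, at 187.7, 183.3 and 287.4 on the replicate 1 arrays and 348.5, 336.9 and 394.6 on the replicate 2 arrays of WT vehicle, KO vehicle and ATL1222. Its log2 difference in the knockout was -0.04 ± 0.35. With ATL1222 it was 0.37 ± 0.35 from WT vehicle and 0.41 ± 0.35 from the knockout. With the replicate block the SE was 0.22, and the last 2 had unadjusted p of 0.114 and 0.0841 (limma adjusted p = 0.821 and 0.57).

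Ppp3r1 encodes the calcium-binding regulatory subunit, which both catalytic subunits need. Its probe set 1433591_at had 1311 and 980.3 in WT vehicle, 1193 and 1226 in KO vehicle, and 1222 and 1261 with ATL1222. The WT vehicle arrays enclosed all the others. The log2 differences were 0.09 ± 0.17 (95% interval -0.28 to 0.46) in the knockout and 0.13 ± 0.17 (95% interval -0.24 to 0.50) with ATL1222. Probe set 1421786_at lay between 188.3 and 238.9 and was highest with ATL1222, with a log2 difference of 0.16 ± 0.26 from WT vehicle.

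Rcan1, the calcineurin inhibitor whose promoter windows are shown above, was highest in KO vehicle and lowest with ATL1222 by its 1 tested probe set. Probe set 1416600_a_at had 240.0 and 209.3 in WT vehicle, 296.5 and 281.6 in KO vehicle, and 223.9 and 155.9 with ATL1222. The KO vehicle arrays lay above the other 4, and WT vehicle and ATL1222 overlapped. The log2 difference was 0.34 ± 0.26 (95% interval -0.24 to 0.93) in the knockout and -0.24 ± 0.26 (95% interval -0.82 to 0.34) with ATL1222, each with a limma adjusted p = 1.00. Between ATL1222 and the knockout it was -0.59 ± 0.26 (95% interval -1.17 to -0.005, unadjusted p of 0.0484, limma adjusted p = 0.776). It was -0.35 without ATL1222 replicate 2 and -0.83 without ATL1222 replicate 1. The untested probe set 1416601_a_at was at 62.4 in KO vehicle replicate 2 and between 3.75 and 11.8 on the other arrays.

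Several members split by replicate number in all groups: 7 of the 22 tested probe sets did, where 20.3% of all probe sets did. Of these 3 were higher on all replicate 2 arrays than on any replicate 1 array, where 12.0% of all probe sets were, and 4 were lower, where 8.31% of all were. The higher ones were Nfatc3 1452497_a_at, Ppp3cb 1427468_at and Nfat5 1439328_at. The lower ones were Nfatc1 1428479_at, 1417621_at and 1425761_a_at and Ppp3cb 1428473_at. So Ppp3cb had probe sets that split in opposite directions, with mean log2 differences of 0.70 and -0.26 between replicate 2 and replicate 1. The median signals of the arrays split by number as well. On the replicate 1 arrays of WT vehicle, KO vehicle and ATL1222 the medians were 76.9, 84.1 and 74.7. On the replicate 2 arrays they were 98.2, 96.3 and 87.7. The part of this shift in the members' splits was not tested. What the number stands for is not given in the labels, and its part in the group differences was not tested beyond the fit with the block.

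**Figure D3:**
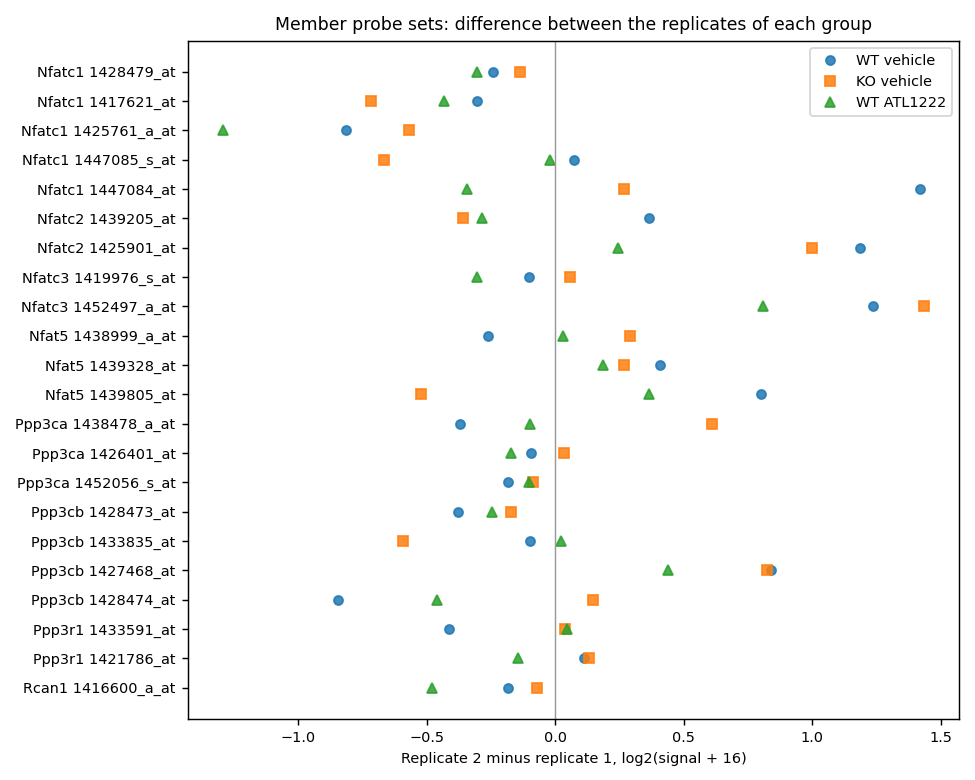
Replicate 2 minus replicate 1 (horizontal axis, log2(signal + 16)) of each tested member probe set in WT vehicle (circles), KO vehicle (squares) and WT ATL1222 (triangles). For Nfatc3 1452497_a_at all 3 groups lie between 0.81 and 1.44, and for Nfatc1 1425761_a_at between -1.29 and -0.57.

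Other genes of the pathway were read from 4 lists by the brightest probe set of each gene. In the calcium entry and calcium sensing list, which holds the calcium store sensors and channel subunits, 12 of 16 genes were tested, and 0 rose or fell in any comparison, where 0%, 0.0458% and 0.522% of all 10916 genes passed. At an unadjusted p under 0.05 the list had 1, 0 and 0 genes, where 3.44%, 4.41% and 7.72% of all genes were (limma). The medians were -0.06 in the knockout, 0.06 with ATL1222 and 0.15 between ATL1222 and the knockout, where all genes had 0.005, -0.008 and -0.02. Orai3, a subunit of calcium channels, had 371.9 and 286.3 in WT vehicle, 235.0 and 170.9 in KO vehicle, and 337.1 and 262.4 with ATL1222. Its KO vehicle arrays were the lowest, with a log2 difference from WT vehicle of -0.66 ± 0.26 (limma adjusted p = 1.00). Stim2, a store sensor, and the calcium pump gene Atp2a3 had -0.21 and 0.23 in that comparison. With ATL1222 against WT vehicle the smallest p were those of Plcg1, the phospholipase upstream of calcium release, at 0.27, the channel gene Orai1 at 0.34 and the store sensor gene Stim1 at 0.31, none passing. Against the knockout Orai3, Orai1 and Stim1 had 0.53, 0.39 and 0.36 (limma adjusted p from 0.824 to 0.893).

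In the list of calcineurin and NFAT partners and inhibitors, 10 of 15 genes were tested and 0 rose or fell in any comparison, with 0 at an unadjusted p under 0.05 (limma), beside the same shares of all genes as for the calcium list. The medians were 0.01, -0.04 and -0.05 in the same order of comparisons. Akap5, a scaffold that holds calcineurin and protein kinase A, had 121.2 and 120.8 in WT vehicle, 167.3 and 201.6 in KO vehicle, and 130.9 and 97.1 with ATL1222. It was highest in KO vehicle, and the log2 difference of ATL1222 from the knockout was -0.63 ± 0.32 (limma adjusted p = 0.826). Mef2d, a transcription factor that calcineurin acts on, had -0.17 in the knockout, 0.21 with ATL1222 and 0.37 between ATL1222 and the knockout. Rcan3, a relative of Rcan1, and the calcineurin inhibitor gene Cabin1 had -0.26 and -0.20 with ATL1222. The calcium-regulated factor gene Nfatc4 lay between 73.8 and 122.9. Ppp3r2, Rcan2 and Homer2 lay below the limit.

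In the list of NFAT kinases and nuclear transport, whose kinases return NFAT to the cytoplasm, 14 of 14 genes were tested and 0 rose or fell, where 0%, 0.0458% and 0.522% of all genes passed. At an unadjusted p under 0.05 the list had 1, 0 and 0 genes (limma), where 3.44%, 4.41% and 7.72% of all genes were. The medians were 0.02, 0.01 and -0.03. Gsk3a, an NFAT kinase, had 752.6 and 905.8 in WT vehicle, 1216 and 996.1 in KO vehicle, and 967.7 and 889.5 with ATL1222. It was highest in KO vehicle, at a log2 difference of 0.41 ± 0.17 from WT vehicle (limma adjusted p = 1.00). Dyrk1a, another NFAT kinase, had -0.34 in the knockout and 0.33 between ATL1222 and the knockout. Prkacb and Prkaca, which encode catalytic subunits of protein kinase A, had opposite signs in both comparisons against WT vehicle. Prkacb had -0.24 in the knockout and -0.13 with ATL1222, and Prkaca had 0.25 and 0.22, none passing. The casein kinase genes Csnk1e and Csnk1d had 0.45 with ATL1222 against WT vehicle and 0.13 against the knockout, in that order.

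Of 20 genes known as targets of NFAT or NFAT5, 10 were tested. The cytokine and activation genes Il2, Il4, Ifng, Tnf, Fasl, Cd40lg, Csf2, Egr2 and Egr3 lay below the limit, with no signal above 118.8 on any array. In the knockout 0 targets passed, where 0% of all genes did, with 0 at an unadjusted p under 0.05 (limma), where 3.44% of all were, and the median was -0.08. With ATL1222 against WT vehicle 0 passed, where 0.0458% of all did, with 2 at an unadjusted p under 0.05 (limma), where 4.41% of all were, and the median was -0.003. With ATL1222 against the knockout 1 rose, where 0.522% of all passed, with 3 at an unadjusted p under 0.05, where 7.72% of all were, and the median was 0.13. With the replicate block 0, 1 and 2 targets passed, where 0.0641%, 0.504% and 1.62% of all genes did.

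The gene that rose was Slc5a3, a sodium and myo-inositol cotransporter that NFAT5 is known to induce under osmotic stress. It had 613.5 and 471.3 in WT vehicle, 452.8 and 431.1 in KO vehicle, and 1470 and 1255 with ATL1222, and the ATL1222 arrays lay above the rest. The Treg marker sum was also higher with ATL1222 than in KO vehicle, and the B cell sum higher than in WT vehicle, and their part in this difference and in that of Cblb was not tested. The log2 difference was 1.59 ± 0.19 from the knockout (limma adjusted p = 0.00378) and 1.31 ± 0.19 from WT vehicle (limma adjusted p = 0.0525, or 0.00231 with the replicate block). Another tested probe set of Slc5a3 ranged from 20.8 to 233.0 and gave 1.01 ± 0.70 from WT vehicle (limma adjusted p = 1.00). Among other osmotic targets, Slc6a6, the taurine transporter gene, had a log2 difference of -0.34 ± 0.17 with ATL1222 against WT vehicle (limma adjusted p = 1.00). In that comparison Hspa4l and Slc38a2 of the same list had -0.16 ± 0.24 and -0.004 ± 0.12, and the brightest probe set of Nfat5 itself had 0.08.

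Cblb, a ubiquitin ligase gene linked to NFAT in unresponsive T cells, had 1675 and 1576 in WT vehicle, 1646 and 1464 in KO vehicle, and 2426 and 2066 with ATL1222. The ATL1222 arrays were the highest, at a log2 difference of 0.52 ± 0.15 from the knockout (limma adjusted p = 0.323, or 0.0448 with the replicate block) and 0.46 ± 0.15 from WT vehicle (limma adjusted p = 1.00, or 0.200 with the block). Its other tested probe sets gave 0.12 and 0.69 from WT vehicle. Dgka, a diacylglycerol kinase gene, lay at -0.38 ± 0.14 between ATL1222 and the knockout (limma adjusted p = 0.599). The heat shock family gene Hspa4l had -0.38 ± 0.24 in the knockout (limma adjusted p = 1.00).

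**Figure D4:**
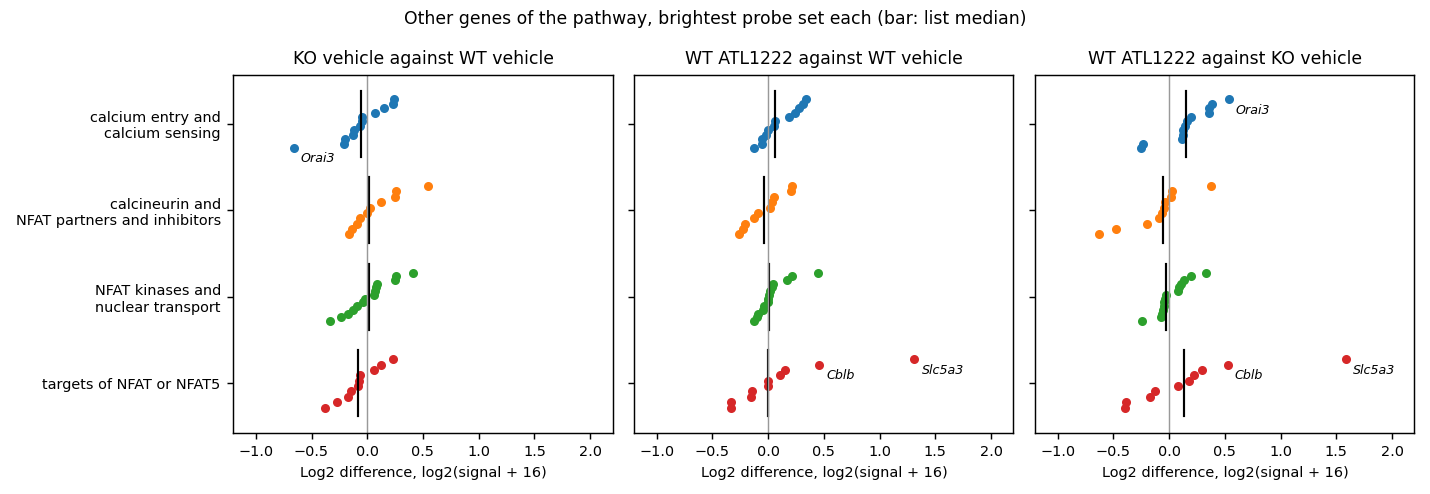
Log2 difference (horizontal axis, log2(signal + 16)) of each tested gene of the 4 pathway lists in the 3 comparisons, 1 point a gene by its brightest probe set, with the list median as a bar. Slc5a3 stands at 1.31 and 1.59 in the comparisons with ATL1222, and every list median lies between -0.08 and 0.15.

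The genes whose signals ran most like the brightest probe sets of Nfatc1 and Nfatc2 were taken from 10908 genes by the root mean square difference of centred log2 values over the 6 arrays. For Nfatc1 they were Aldh9a1 at 0.0232, Acap2 at 0.0271 and Nmi at 0.0289. Each of these, like Nfatc1 1428479_at, was higher on every replicate 1 array than on any replicate 2 array. Aldh9a1 had 1856, 1726 and 1834 on the replicate 1 arrays of WT vehicle, KO vehicle and ATL1222. On the replicate 2 arrays it had 1639, 1582 and 1513. Whether this likeness goes beyond the split by replicate number was not tested. For Nfatc2 they were Slc41a3 at 0.110, BC147527 at 0.116 and Ttc27 at 0.116. Slc41a3 had 312.5 and 392.6 in WT vehicle, 265.6 and 203.8 in KO vehicle, and 280.3 and 231.3 with ATL1222. Both WT vehicle arrays were the highest for it, as for Nfatc2, while its KO vehicle mean lay below that with ATL1222.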

How the data were processed

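The authors hybridised biotin-labelled RNA from 1 µg of total RNA per the labels' protocols, and used GCOS per the submitters' processing notes. No version or algorithm of it is stated in the labels used. The deposited values were linear intensities (array signals), and each array had the same mean with the highest and lowest 2% of probe sets left out. That scaling was kept. The number of arrays limits the precision: with 2 arrays a group the smallest two-sided p of an exact permutation test is 0.33, so tests borrowed information across probe sets.

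64 control probe sets were left out. Of 45037 others, 34945 had 1 gene symbol, 932 had several and 9160 were not listed. Symbols were updated through Entrez identifiers in a table of assembly GRCm38.p6. The limit for dim probe sets was the 40% quantile of the means of the brightest probe set of each gene, applied to all probe sets. limma 3.58.1 in R 4.3.3 was fitted to all 6 arrays with a mean-variance trend and without a block, since no block is named in the labels used. The scripts were first tested on simulated data, which does not bear on that choice. Same-numbered arrays deviated together (correlations between groups of 0.273, 0.259 and 0.175). The numbers from the titles were therefore treated as a possible pairing of the arrays, which the labels do not state. The main fit does not use that pairing, and a fit with the number as a block is given beside the counts and some of the results. Other alternatives were 1 probe set per gene, no limit, pseudocounts of 1 and 64, no trend, cyclic loess, only the arrays compared, and each array left out. The 8 genes, the 4 lists and the rules were chosen with earlier results of these data known. In each list and comparison up to 3 tested genes with the smallest unadjusted p are named. The other probe sets of Slc5a3 and Cblb, the ATL1222 values of Hspa4l and Slc38a2, and genes below the limit were named after their values were seen. Likeness was taken as the root mean square difference.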

Additional observations from a re-analysis of the deposited data

How the results depend on the processing

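No member probe set passed under any of the 8 alternatives or with any array left out. With no limit for dim probe sets, 5 of all 31 members (16.1%) had an unadjusted p under 0.05 (limma) for ATL1222 against the knockout. Of all 45037 probe sets 2599 (5.77%) did, and 1 of the 31 members did in each of the other comparisons. The 31 include the 9 members below the limit. In the main fit 2 of the 22 tested members had such a p for ATL1222 against the knockout. Among recomputed member differences, 810 kept their sign and side of the threshold, and 72 changed sign. Many of the 810 could not change sign, because several settings leave the log2 difference itself as it was. These are 1 probe set per gene, no limit, the replicate block, no trend and only the arrays compared. Leaving out an array of the group not compared does the same. The smallest unadjusted p that a difference among these 72 had in the main fit (limma) was 0.306, for Ppp3cb 1427468_at with ATL1222 against WT vehicle. The log2 difference of Nfatc2 1439205_at ran from -0.78 to -0.41 in the knockout and from -0.87 to -0.50 with ATL1222. Its smallest limma adjusted p were 0.682 and 0.341, both with the replicate block.

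The counts over all probe sets moved more. For the knockout against WT vehicle 0 passed (limma; 760 at an unadjusted p under 0.05), and 3 did with 1 probe set per gene, 11 with the replicate block, 4 with cyclic loess and 0 to 6 with an array left out. For ATL1222 against WT vehicle 9 passed, and 23 did with 1 probe set per gene, 22 with a pseudocount of 64, 76 with the replicate block, 0 with no trend (limma; 1021 at an unadjusted p under 0.05), 24 with cyclic loess, 26 with only the arrays compared and 3 to 24 with an array left out. For ATL1222 against the knockout 87 passed, and 267 did with the replicate block, 7 with no trend and 15 to 107 with an array left out. The cause of these moves was not tested. The block changed no call of a member. Among the fits with an array left out, leaving out either ATL1222 array gave the lowest counts against the knockout. The median standard error of 0.257 limits what could be detected for the members.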
